A study of Homo sapiens with 2 samples.

Results

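TRiC, also called CCT, is the ring-shaped chaperonin of the eukaryotic cytosol. Its subunit genes were examined here as 8 Ensembl gene IDs out of the 57820 IDs in a table of ribosome footprints. The members were chosen by identity, as the genes of the 8 subunits TCP1, CCT2, CCT3, CCT4, CCT5, CCT6A, CCT7 and CCT8, and not by their measured values. All 8 IDs were found and all 8 were above 0 in both libraries. The footprints came from HEK293 cells (ATCC CRL-1573), a long-established line derived from human embryonic kidney. Both libraries belong to 1 group, cells kept for 12 h in DMSO, the vehicle. Each library has its own batch number, 1 for replicate 1 and 2 for replicate 2. The series' title asks about ribosome occupancy and 5′ bias on mRNAs of aggregating proteins. Minocycline-treated cells, matched RNA levels and positions of ribosomes within an mRNA were not analysed here. The 2 libraries may come from separate cultures, but the labels state only their different batch numbers, so an SD over the pair describes how far these libraries differ and can include technical spread. The markers meant for checking the identity of HEK293 cells could not be applied, because neither the table nor the reference used here pairs other IDs with gene names.

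Each TRiC ring holds a single copy of every subunit and encloses a folding chamber, and a pair of rings stacks back to back. ATP hydrolysis closes the chamber over newly made proteins. Actin and tubulin depend on it to fold, and so do many proteins built from WD40 repeats. The subunits are related proteins of similar size, each with an ATP-binding equatorial domain, an intermediate domain and a substrate-binding apical domain. Because a finished ring contains equal numbers of the 8 proteins, how evenly ribosomes are spread over the 8 mRNAs is the natural question for this complex.

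Replicate 1 held 865838 counts of fragments of 27 to 29 nt and replicate 2 held 611266. At these depths 10 counts equal 11.5 CPM in replicate 1 and 16.4 CPM in replicate 2, where CPM scales each library to 1000000 counts. The 8 subunit genes summed to 3632 counts in replicate 1 and 2198.5 in replicate 2. Of all counts, this was 0.419% in replicate 1 (0.406 to 0.433, 95% exact Clopper-Pearson) and 0.360% in replicate 2 (0.345 to 0.375), with a mean of 0.390% ± 0.0423 (SD, n = 2). The share was higher in replicate 1 by more than counting error. Part of the total belongs to 2 very abundant IDs whose share differed between the libraries, and with them left out of the total the 8 genes held 0.509% of replicate 1 and 0.469% of replicate 2. All intervals given here are for counting error alone. They assume that fragments are independent molecules, which cannot be assured after amplification without molecular identifiers.

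Footprints were spread unevenly over the 8 subunit genes. Levels are given as counts and CPM and are not divided by length, since coding lengths were not used here. The order of the genes below is therefore an order of footprints per gene, not of ribosome density along the mRNA.

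CCT7 (ENSG00000135624), the eta subunit, carried the most footprints. It had 1030 counts in replicate 1 and 602 in replicate 2, and averaged 1087 ± 145 CPM (SD, n = 2). It ranked 84 among all IDs in replicate 1 and 91 in replicate 2, and by mean level it was the only one of the 8 within the first 100 IDs.

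CCT3 (ENSG00000163468), the gamma subunit, came next in both libraries. It had 622 counts in replicate 1 and 468 in replicate 2, and averaged 742 ± 33.4 CPM. CCT5 (ENSG00000150753), the epsilon subunit, had 575 counts in replicate 1 and 301 in replicate 2, and averaged 578 ± 121 CPM. CCT5 is linked to a hereditary sensory neuropathy, and the purified human protein can form rings of a single subunit type. CCT4 (ENSG00000115484), the delta subunit, shares that property of forming rings by itself. It had 407 counts in replicate 1 and 309 in replicate 2, and averaged 488 ± 25.1 CPM.

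The other 4 subunit genes formed a lower group, between 183 and 292 counts in replicate 1 and between 114.5 and 153 in replicate 2. CCT8 (ENSG00000156261), the theta subunit, had 284 counts in replicate 1 and 153 in replicate 2, and averaged 289 ± 54.9 CPM. In Caenorhabditis elegans, raising the level of this subunit increases assembly of the chaperonin. CCT2 (ENSG00000166226), the beta subunit, had 292 counts in replicate 1 and 121 in replicate 2, and averaged 268 ± 98.5 CPM. CCT2 has also been described as a receptor that delivers aggregated proteins to autophagy.

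CCT6A (ENSG00000146731), the zeta subunit, has a testis-enriched paralog, CCT6B, whose ID could not be looked up here. It had 239 counts in replicate 1 and 130 in replicate 2, and averaged 244 ± 44.8 CPM. TCP1 (ENSG00000120438), the alpha subunit and the first of the family to be described, carried the fewest footprints. It had 183 counts in replicate 1 and 114.5 in replicate 2, and averaged 199 ± 17.0 CPM. By mean level TCP1 ranked 751 among all IDs, and even so it was measured with 298 counts over both libraries after rounding.

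**Figure D1:**
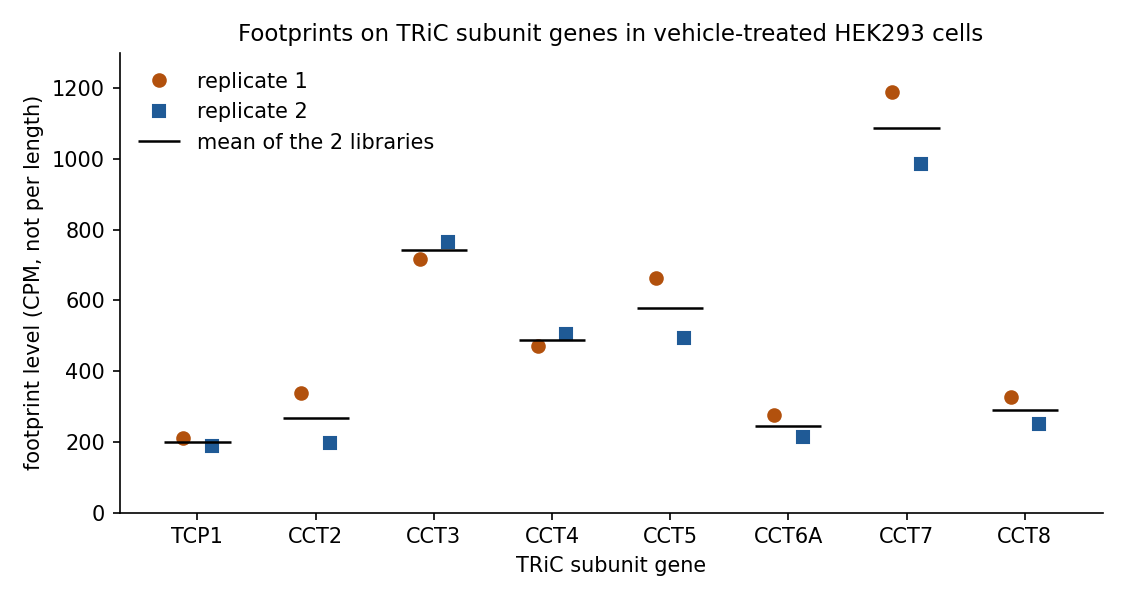
Footprint level (CPM, not divided by length) of each TRiC subunit gene in replicate 1 (circles) and replicate 2 (squares), with the mean of the 2 libraries as a line. CCT7 lies highest in both libraries, at a mean of 1087 CPM, and TCP1 lowest at 199 CPM; the values of CCT2 lie furthest apart relative to their mean.

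The mean level of CCT7 was 5.45 times that of TCP1. The ratio of the highest to the lowest count was 5.63 in replicate 1 and 5.26 in replicate 2. The coefficient of variation over the 8 genes was 61.8% in replicate 1 and 66.2% in replicate 2. This unevenness between the subunit genes was therefore of similar size in both libraries. Over IDs with at least 100 summed counts, edgeR estimated a common coefficient of variation of 0.208 between the 2 libraries. That value describes the same ID in both libraries with counting error set apart. It is therefore a different measure from the spread over different genes, and the spread over other sets of genes is not given here.

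The order of counts was close to the same in the 2 libraries. Of the 28 pairs of subunit genes, 25 had the same member higher in both libraries. The 3 exchanges were CCT5 with CCT4, CCT2 with CCT8 and CCT2 with CCT6A. In 23 of the 28 pairs the CPM values of the 2 members did not overlap between libraries, against 75.4% of all pairs of IDs with at least 100 summed counts. Neighbours in the order that overlapped were CCT5 and CCT4, CCT8 and CCT2, CCT2 and CCT6A, and also CCT8 with CCT6A and CCT2 with TCP1. With 2 libraries per gene, even an unpaired exact permutation test of 2 values against 2 cannot give a two-sided p below 0.333. The values of a pair come from the same 2 libraries, which leaves fewer arrangements, so no pair was tested.

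Shares within the complex do not depend on the scaling between libraries, and the length of a gene is the same in both libraries. CCT7 held 28.4% of the counts of the 8 genes in replicate 1 (95% exact Clopper-Pearson interval 26.9 to 29.9) and 27.4% in replicate 2 (25.5 to 29.3). TCP1 held 5.04% in replicate 1 (4.35 to 5.80) and 5.21% in replicate 2 (4.34 to 6.24). Both ends of the range thus lay at nearly the same share in the 2 libraries. CCT3, CCT5 and CCT7 together held 61.8% of the counts on average, and an equal split of counts would give each gene 12.5%.

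Within the complex, 3 genes had shares whose counting intervals did not overlap between the libraries. CCT2 held 8.04% in replicate 1 (7.18 to 8.97) and 5.50% in replicate 2 (4.59 to 6.54). CCT3 held 17.1% in replicate 1 (15.9 to 18.4) and 21.3% in replicate 2 (19.6 to 23.1), and CCT4 held 11.2% (10.2 to 12.3) and 14.1% (12.6 to 15.6). The intervals of the other 5 genes overlapped. This rule was applied only to the 8 genes, so no share over all IDs can be set beside the 3. By a different and less strict rule, 37.9% of the 2245 IDs with at least 100 summed counts differed between the libraries. That rule asks only that the 95% counting interval of an ID's ratio between the libraries leaves out equality, and it is no baseline for the 3 genes. Whether shifts in 3 of 8 genes are particular to the complex was not tested.

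**Figure D2:**
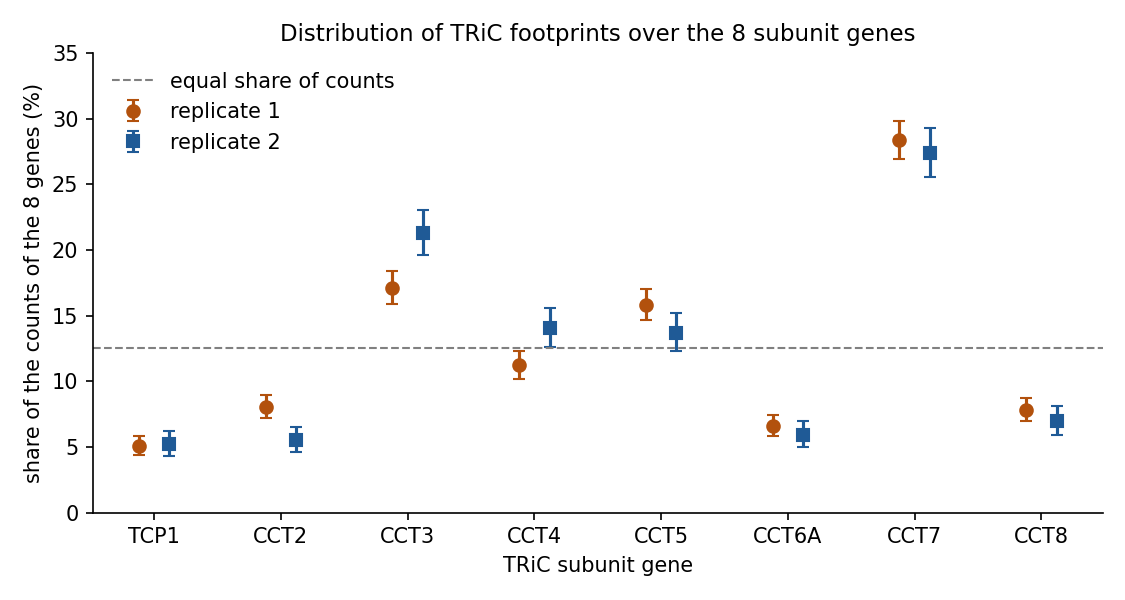
Share of the summed counts of the 8 TRiC subunit genes held by each gene (%), in replicate 1 (circles) and replicate 2 (squares), with 95% exact Clopper-Pearson intervals for counting error and a dashed line at the 12.5% that an equal split of counts would give. CCT7 holds 28.4% and 27.4%, TCP1 5.04% and 5.21%, and the intervals of CCT2, CCT3 and CCT4 do not overlap between the libraries.

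Ratios between members rest on the same counts. There were 1.41 footprints on CCT5 for each on CCT4 in replicate 1 and 0.974 in replicate 2. CCT3 carried 2.13 times the counts of CCT2 in replicate 1 and 3.87 times in replicate 2. The ratio of CCT3 to CCT4 was nearly the same, at 1.53 in replicate 1 and 1.51 in replicate 2. The ratio of CCT8 to CCT6A was also close, at 1.19 in replicate 1 and 1.18 in replicate 2.

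The libraries were then compared gene by gene after TMM scaling, which aims to set the bulk of IDs equal between libraries. After it, the median log2 ratio of the IDs with at least 100 summed counts was 0.07. Ratios are given as replicate 1 over replicate 2, with 95% intervals from the exact binomial distribution. Each batch holds 1 library, so a difference of batch and a difference of replicate cannot be told apart. CCT2 differed most, with a log2 ratio of 0.66 (0.35 to 0.98), or 1.58-fold higher in replicate 1. CCT5 had a log2 ratio of 0.32 (0.12 to 0.53) and CCT7 of 0.16 (0.02 to 0.31), both higher in replicate 1. The interval of CCT7 holds the median of 0.07. CCT3 was higher in replicate 2, with a log2 ratio of -0.20 (-0.38 to -0.02). The call of CCT3 ended with library-size scaling, at a log2 ratio of -0.09, and the calls of CCT3 and CCT7 ended with 99% intervals.

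The intervals of the remaining 4 genes held 0. The log2 ratio was 0.28 (-0.01 to 0.58) for CCT8, 0.27 (-0.05 to 0.59) for CCT6A, 0.06 (-0.28 to 0.41) for TCP1 and -0.21 (-0.43 to 0.01) for CCT4. In all, 4 of the 8 subunit genes had an interval off 0, against 37.9% of the 2245 IDs with at least 100 summed counts. By direction these were 3 genes higher in replicate 1, against 22.4% of IDs, and 1 higher in replicate 2, against 15.5%. At this minimum, 4 of the 8 is more than 37.9%, but the minimum admits IDs with fewer counts than any member. The share called was not computed over IDs with counts like those of the members, so a difference from such IDs was not tested. The share of IDs with an interval off 0 was 26.3% at a minimum of 20 summed counts and 15.7% at a minimum of 1, where sparse IDs with wide intervals enter. Each of the 8 genes has at least 298 counts. CCT2 alone lay beyond 1.5-fold, as did 20.2% of the 2245 IDs. Among the 659 IDs whose summed counts lay within the range of the members, 84.7% lay within 1.5-fold, as did 7 of the 8 genes.

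**Figure D3:**
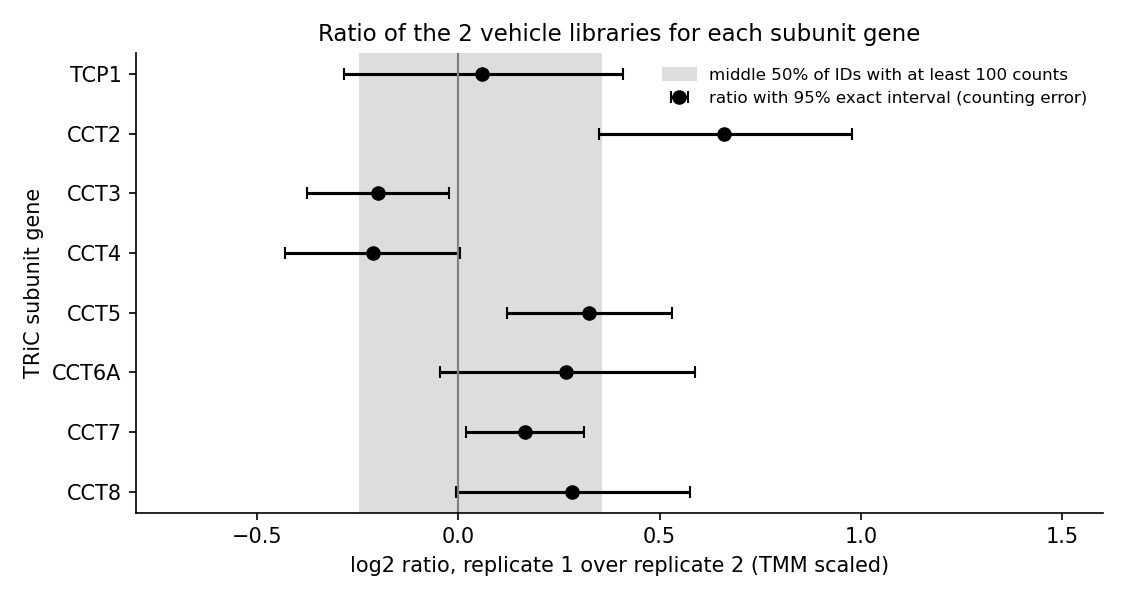
Log2 ratio of replicate 1 over replicate 2 after TMM scaling for each TRiC subunit gene (points), with 95% exact binomial intervals for counting error, over a grey band that spans the middle 50% of IDs with at least 100 summed counts. Of the 8 genes, CCT2 lies outside the band at 0.66, and CCT3 and CCT4 lie below 0.

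The spread of the 8 genes was no wider than that of comparable IDs. The median absolute log2 ratio was 0.24 over the 8 genes, 0.30 over the 2245 IDs and 0.25 over the 659 IDs whose summed counts lay within the range of the members, 298 to 1632. The SD of the log2 ratios was 0.29 over the 8 genes and 0.42 over those 659 IDs. The absolute ratio of CCT2 was larger than that of 83.6% of the 2245 IDs, and that of TCP1 was larger than that of 10.9%. The median log2 ratio of the 8 genes was 0.22 and that of the 2245 IDs was 0.07, and 6 of the 8 were above 0, as were 57.0% of the IDs.

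The complex was also compared as a whole. The summed count of the 8 genes was 1.08 times as high in replicate 1 as in replicate 2 after TMM scaling (95% interval 1.03 to 1.14), a log2 ratio of 0.11 (0.04 to 0.19). Without CCT2 the log2 ratio was 0.07 and without CCT5 it was 0.08, and in both cases the counting interval held 0. Leaving out CCT3 raised it to 0.19 and leaving out CCT4 to 0.16, with intervals still off 0. Over the 659 IDs whose summed counts lay within the range of the members, the median log2 ratio was 0.09 and 60.5% were above 0. That median lies within the interval of the complex.

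**Figure D4:**
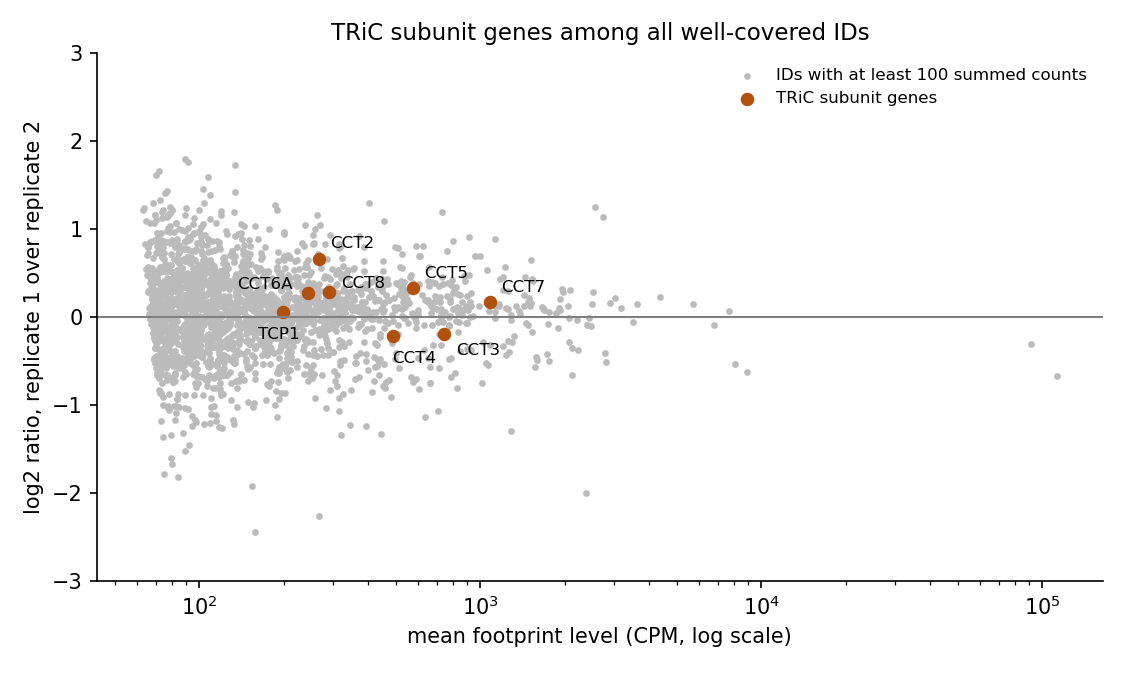
Mean footprint level (CPM, log scale) against the log2 ratio of replicate 1 over replicate 2 after TMM scaling, for the 2245 IDs with at least 100 summed counts (grey) and the 8 TRiC subunit genes (coloured and named). The subunit genes range from 199 CPM for TCP1 to 1087 CPM for CCT7 and lie within the cloud of other IDs, with CCT2 highest at a log2 ratio of 0.66.

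Among the well-covered IDs, TRiC genes lay in the upper part of the range. The median of their mean levels was 388 CPM, against 135 CPM for the 2245 IDs. TCP1, the lowest, exceeded 66.5% of these IDs and CCT7 exceeded 96.1%. These are again levels per gene and not per length.

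A non-whole value occurred in 1 of the 8 members. Of the 2245 IDs, 21.8% had a non-whole value in at least 1 library. TCP1 had one, 114.5 in replicate 2. So did the ID in the row before it, with 177 counts (replicate 1) and 184.5 (replicate 2). The 7 other subunit genes had whole values in both libraries. Of the 16 IDs in the rows next to the members, 8 were at 0 in both libraries and 12 were under 10 counts in both. Besides the neighbour of TCP1, the largest was an ID beside CCT5 with 39 counts in replicate 1 and 24 in replicate 2.

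The subunit genes are scattered over the genome. RefSeq (GRCh38.p14) places CCT3 on chromosome 1, CCT4 and CCT7 on chromosome 2, CCT5 on 5, TCP1 on 6, CCT6A on 7, CCT2 on 12 and CCT8 on 21. RefSeq promoter windows, with 250 bases before the start of transcription, were matched by symbol for 7 of the 8 genes. The 7 were TCP1, CCT2, CCT3, CCT4, CCT5, CCT7 and CCT8, with 9 windows between them, and CCT6A was not matched. The window of CCT5 lies inside the span of its gene, with its start 616 bases from the outer end.

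A gene on the opposite strand starts within 1000 bases upstream in 4 of the 9 windows, which belong to 3 genes, against 17.9% of the 35116 windows in the table. These are MRPL18 beside TCP1, at 210 bases, TSACC beside CCT3, at 234 bases, and COMMD1 beside CCT4, at 54 bases from the outermost start.

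On both strands, 4 motifs were searched in the 250 upstream bases, and the matches are descriptions and not sites. CCAAT, the core bound by NF-Y, was found in 4 of the 9 windows (TCP1, CCT2, CCT3 and CCT8), against 32.0% of all windows. CCGGAA, a core of ETS family sites, was found in 2 (CCT2 and CCT5), against 14.5%. GAANNTTC, a pair of heat shock factor units, was found in 2 (TCP1 and the inner window of CCT2), against 5.78%. TATAAA was found in 0, against 10.7%. No motif overlapped another in the stretches printed here.

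The 120 bases just before the start are shown 5′ to 3′ for CCT2 and CCT3, whose log2 ratios had opposite signs, and for CCT7, which carried the most footprints. Capitals mark CCAAT or its reverse complement ATTGG, and CCGGAA or its reverse complement TTCCGG. CCT2 holds both kinds, CCT3 holds ATTGG in a pair of places, and CCT7 holds none of the motifs searched. Footprint counts do not measure promoter activity, so no relation between these letters and the levels was tested.
CCT2, chr12:69585339-69585458, plus strand: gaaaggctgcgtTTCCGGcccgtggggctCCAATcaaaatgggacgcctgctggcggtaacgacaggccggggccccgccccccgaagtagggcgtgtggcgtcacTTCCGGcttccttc
CCT3, chr1:156338293-156338412, minus strand: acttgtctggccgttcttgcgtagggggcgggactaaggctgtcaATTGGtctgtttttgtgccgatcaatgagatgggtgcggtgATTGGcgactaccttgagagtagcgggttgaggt
CCT7, chr2:73234188-73234307, plus strand: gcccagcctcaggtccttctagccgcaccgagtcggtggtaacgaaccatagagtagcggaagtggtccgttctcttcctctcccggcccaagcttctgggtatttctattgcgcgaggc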

How the data were processed

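Ribosome footprints of HEK293 cells were sequenced as 2 libraries. Per the labels' protocols, lysates were digested with RNase I and fragments of 20 to 38 nt were gel-purified without depletion of ribosomal RNA. The authors deposited 1 table with a column per library, which per the labels holds footprints 27 to 29 nt long per Ensembl gene ID. These deposited values are unscaled and in part not whole, and were taken as estimated counts. The submitters' processing notes name hg19 as the build. For the aligner, the annotation, the strandedness and the way fragments were divided, the sources used here give nothing.

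The members, lists and motifs were chosen with earlier results of these data known. All 8 members are named, by a rule that listed them and, where IDs could be paired with symbols, related genes and markers. The table and the reference pair no ID with a symbol, so the lists on prefoldin, phosducin-like proteins, folding clients and other chaperonins were not run, and members were matched through their listed IDs. Reference proteins were not used here, so the planned density per codon and identity between subunits were not computed, and counts were used undivided.

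CPM and shares used the deposited values, and intervals and ratios used values rounded to whole numbers (0.5 upwards; whole means within 0.001). TMM factors came from edgeR 4.0.16 in R 4.3.3 over IDs with at least 20 summed counts. Shares carry 95% Clopper-Pearson intervals. The interval step was tested on simulated data that held counting error alone, without the further variation between libraries seen in these data. With 1 group there was no contrast and no p-value. Alternatives were library-size and DESeq2 1.42.0 scaling, 2 highest IDs left out, 99% intervals, other count minimums, and single replicates or members left out. Python 3.11.15, numpy 2.4.6, scipy 1.17.1 and pandas 2.3.3 were used.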

Additional observations from a re-analysis of the deposited data

How the results depend on the processing

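The number of TRiC genes with an interval off 0 was 4, and became 2 with 99% intervals (26.9% of IDs), 5 with library size (43.4%) and 5 with DESeq2 scaling (37.8%). Lower count minimums left it at 4 and took the share of IDs to 26.3% (20 counts) and 15.7% (1 count). It stayed at 4 with the 2 highest IDs left out and with values rounded down, an alternative chosen after seeing the data. Library size ended the call of CCT3 and added CCT6A and CCT8, DESeq2 scaling added CCT4, and 99% intervals ended the calls of CCT3 and CCT7. Under the scalings of all IDs, all 8 genes kept their direction. Set against the other 7 members, also chosen after seeing the data, TCP1 turned to a log2 ratio of -0.0566, the call of CCT7 ended (0.07) and CCT4 gained a call (-0.37). The share of all counts became 0.489% without the 2 highest IDs. With one replicate left out, it ran from 0.360% to 0.419%, the highest over lowest count from 5.26 to 5.63 (mean 5.44) and the coefficient of variation from 61.8% to 66.2% (mean 64.0%). The highest over lowest count was 4.64 without TCP1 and 3.74 without CCT7. The coefficient of variation was 59.2% without TCP1, 70.1% without CCT3, 69.1% without CCT4, 70.3% without CCT5 and 52.4% without CCT7. The log2 ratio of the summed count was 0.0746 without CCT2 and 0.0775 without CCT5, and neither interval lay off 0. It was 0.188 without CCT3 and 0.161 without CCT4, and both intervals lay off 0. These changes follow from the genes left out. Depth limits the lower genes: the interval of TCP1 spanned -0.28 to 0.41. No paired analysis between groups was possible because there is 1 group.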
